A study of Mus musculus with 13 samples.

Results

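The genes of antigen presentation, which display peptides on the cell surface to T cells, were followed through left ventricular (LV) RNA of cardiac LXRα transgenic (LXRα-Tg) and wild-type (Wt) mice. The members were all probes whose platform symbol begins with H2- or is B2m, Tap1, Tap2, Tapbp, Cd74, Ciita, Psmb8, Psmb9 or Psmb10. These were 57 probes of 44 genes, of 25697 probes on the array, and 30 of them, for 22 genes, were detected at a detection p under 0.01 on at least 3 of the 13 arrays. The rule itself used no difference between groups, though it was set with earlier results of these data known. For 1 member, H2-Ke6, the prefix gives only its place in the complex. It encodes a hydroxysteroid dehydrogenase and has no known part in antigen presentation.

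Illumina mouse BeadChips gave 3 arrays labelled LXRα-Tg TAC, 3 LXRα-Tg sham, 4 Wt TAC and 3 Wt sham. All are described as from male mice 4 months old, 5 weeks after transverse aortic constriction (TAC), which overloads the ventricle, or sham surgery. LXRα-Tg mice carry murine LXRα (gene Nr1h3) under the αMHC promoter, which is active in cardiomyocytes, and Wt mice were their littermates. The line was founded in FVB oocytes and backcrossed to C57BL/6, strains that carry different haplotypes of the H2 complex. The probe sequences were not used here, so whether each probe matches both haplotypes was not tested. Whether every array holds a different mouse is not stated, and p-values describe only array-to-array spread, which may be technical.

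Values per array below are the deposited background-subtracted signals, in arbitrary units and in array order within a group, which can fall below 0. Differences are log2 differences of group means after quantile normalization, so they can depart from the signals. Nr1h3, the gene carried by the transgene, was checked first. The signal of its brighter probe was between 25187 and 31975 on 5 arrays, while 8 arrays had 163 to 397. On 5 arrays this went against the label: LXRα-Tg sham 1 and 2 and LXRα-Tg TAC 3 were low, and Wt sham 3 and Wt TAC 2 were high. Group names below are those of the labels, and the medians of the members are also given without those 5 arrays, which leaves LXRα-Tg sham with 1 array, whose spread is then taken from the other groups. Slide 1 held 1 LXRα-Tg TAC, 1 LXRα-Tg sham, 2 Wt TAC and 2 Wt sham arrays, and slide 2 held 2, 2, 2 and 1 of them, so a value within a slide often sets a single array against 1 or 2 others. Detected probes numbered 9454 to 10392 per array, and ventricular markers (7 of 7 genes on the array) were detected. Summed liver markers reached 7621 on Wt sham 3 and 7033 on LXRα-Tg TAC 1, against 295 to 4070 on the other 11 arrays, with Alb and Fgb not detected. Kidney markers summed to 1639 on Wt sham 3 and to 39.5 to 591 elsewhere, with Umod and Klk1 not detected. Atrial markers summed to 18691 to 32999 in LXRα-Tg TAC, 27068 to 36262 in LXRα-Tg sham, 9866 to 32937 in Wt TAC and 6554 to 11645 in Wt sham. Eif2s3y, a Y-linked gene, was not detected on LXRα-Tg TAC 3 (-1.6) and Wt sham 1 (-3.9), though the mice are described as male. It read 92.8 to 449 on the other 11 arrays. Counts without these 2 arrays are given below. The part of these differences in the member values was not tested.

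Class I molecules pair a heavy chain (H2-K1, H2-D1 and the non-classical Q, T and M genes) with the light chain B2m, and show peptides from the cytosol to CD8 T cells. The immunoproteasome subunits Psmb8, Psmb9 and Psmb10 cut those peptides, Tap1 and Tap2 carry them into the endoplasmic reticulum, and Tapbp (tapasin) loads them. Class II molecules (H2-Aa with H2-Ab1, H2-Ea with H2-Eb1) are found mainly on macrophages, dendritic cells and B cells and show peptides from endosomes to CD4 T cells, with the invariant chain Cd74 and the H2-DM proteins guiding their loading. Ciita, the class II transactivator, acts through paired X and Y boxes upstream of class II genes, and the boxes have counterparts upstream of class I genes and B2m. In heart muscle most of this machinery sits in cells other than cardiomyocytes. In whole LV RNA, fewer cells of a type and less RNA per cell cannot be told apart.

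Promoter windows from RefSeq (GRCm38.p6, 250 bases before to 50 after a gene's start) matched 33 of the 44 member genes. The table held none for Cd74, Ciita, H2-Ab1, H2-Bl, H2-Ea, H2-Q1, H2-Q5, H2-Q8, H2-T10, H2-T24 and Tap2. The 160 bases upstream of 7 detected members follow, chosen to cover the light chain, classical and non-classical heavy chains, the transporter and class II, and to show the short motifs that some of them share. Capitals mark the motifs searched, on either strand: the interferon-stimulated response element (GAAA, any 2 bases, GAAA), the core of an X2 box (TGACG), the Y box (ATTGG) and a κB site (GGGAT joined to TCCCC).
B2m, chr2:122147527-122147686, plus strand: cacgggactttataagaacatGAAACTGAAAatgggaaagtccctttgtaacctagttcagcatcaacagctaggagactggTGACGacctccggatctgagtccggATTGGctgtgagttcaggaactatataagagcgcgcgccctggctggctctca
H2-K1, chr17:34000348-34000507, minus strand: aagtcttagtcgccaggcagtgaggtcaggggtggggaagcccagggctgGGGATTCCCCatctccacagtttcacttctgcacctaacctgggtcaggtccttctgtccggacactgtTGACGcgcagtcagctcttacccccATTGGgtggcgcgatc
H2-Q7, chr17:35438995-35439154, plus strand: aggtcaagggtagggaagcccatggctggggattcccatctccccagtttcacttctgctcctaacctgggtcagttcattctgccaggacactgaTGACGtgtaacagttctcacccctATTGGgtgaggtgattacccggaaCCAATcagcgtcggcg
H2-T23, chr17:36032702-36032861, minus strand: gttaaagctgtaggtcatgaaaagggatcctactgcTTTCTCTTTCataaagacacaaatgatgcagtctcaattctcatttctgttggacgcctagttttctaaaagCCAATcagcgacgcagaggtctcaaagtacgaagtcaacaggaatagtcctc
Tap1, chr17:34187396-34187555, plus strand: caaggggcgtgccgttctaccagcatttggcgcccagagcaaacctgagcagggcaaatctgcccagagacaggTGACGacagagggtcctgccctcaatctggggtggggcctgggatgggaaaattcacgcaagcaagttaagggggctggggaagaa
H2-Aa, chr17:34287824-34287983, minus strand: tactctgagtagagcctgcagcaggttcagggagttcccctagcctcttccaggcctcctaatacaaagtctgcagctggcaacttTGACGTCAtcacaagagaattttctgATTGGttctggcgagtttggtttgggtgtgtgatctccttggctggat
H2-Eb1, chr17:34305707-34305866, plus strand: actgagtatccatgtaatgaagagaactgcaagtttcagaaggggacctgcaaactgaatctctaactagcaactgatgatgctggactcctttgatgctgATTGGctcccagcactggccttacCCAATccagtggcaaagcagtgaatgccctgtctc
In H2-Aa, the run TGACGTCA is TGACG read on both strands.

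The single motifs differed widely in how common they were. ATTGG stood in the windows of 29 of 33 member genes and in 37.4% of all 32851 mouse windows, and TGACG in 13 members and 20.8% of all windows. The interferon-stimulated response element was found in the windows of 2 members, B2m and H2-T23, and in 3.44% of all windows. The κB site was found in H2-K1 and H2-D1 and in 0.0852% of all. The pair of boxes was rarer. TGACG followed after 19 to 21 bases by ATTGG in the same orientation, a spacing chosen after these sequences were read, was present in 6 member genes and in 0.201% of all windows. The 6 genes were B2m, H2-K1, H2-D1, H2-M3, H2-Q7 and H2-Aa, and all had a detected probe. The gap was 20 bases in B2m, H2-K1, H2-D1 and H2-M3, 19 in H2-Q7 and 21 in H2-Aa. A match describes the letters and is not evidence that a factor binds there.

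In the ventricle, 23 of the 30 detected probes were read on all 13 arrays and 7 on 4 to 12 of them. The detected genes were B2m, H2-K1, H2-D1, H2-Q1, H2-Q7, H2-Q8, H2-T10, H2-T23, H2-M3, Tap1, Tap2, Tapbp, Psmb8, Psmb9, Psmb10, H2-Aa, H2-Ab1, H2-Eb1, Cd74, H2-DMa, H2-DMb1 and H2-Ke6. The remaining 22 genes had no probe past the detection filter. They were H2-Q2, H2-Q5, H2-Q10, H2-T3, H2-T24, H2-Bl, H2-Ea, H2-Eb2, H2-DMb2, H2-Oa, H2-Ob, Ciita and 10 genes of the M group. Of the 27 probes that failed the filter, 25 were detected on no array and 2 on 1 array each, the H2-M10.1 and H2-M11 probes on 1 Wt TAC array each. H2-Oa and H2-Ob encode the DO protein, found mainly in B cells, and H2-Ea is not transcribed in mice of the C57BL/6 haplotype. Ciita read 2.3, 1.9 and 2.7 in LXRα-Tg TAC and 21, 15.7 and 7.6 in LXRα-Tg sham, and then -1.7, 9.6, 3.6 and 9.3 in Wt TAC and 9.7, 9.3 and 13.1 in Wt sham. None of these readings passed detection, so no difference is drawn from them.

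**Figure D1:**
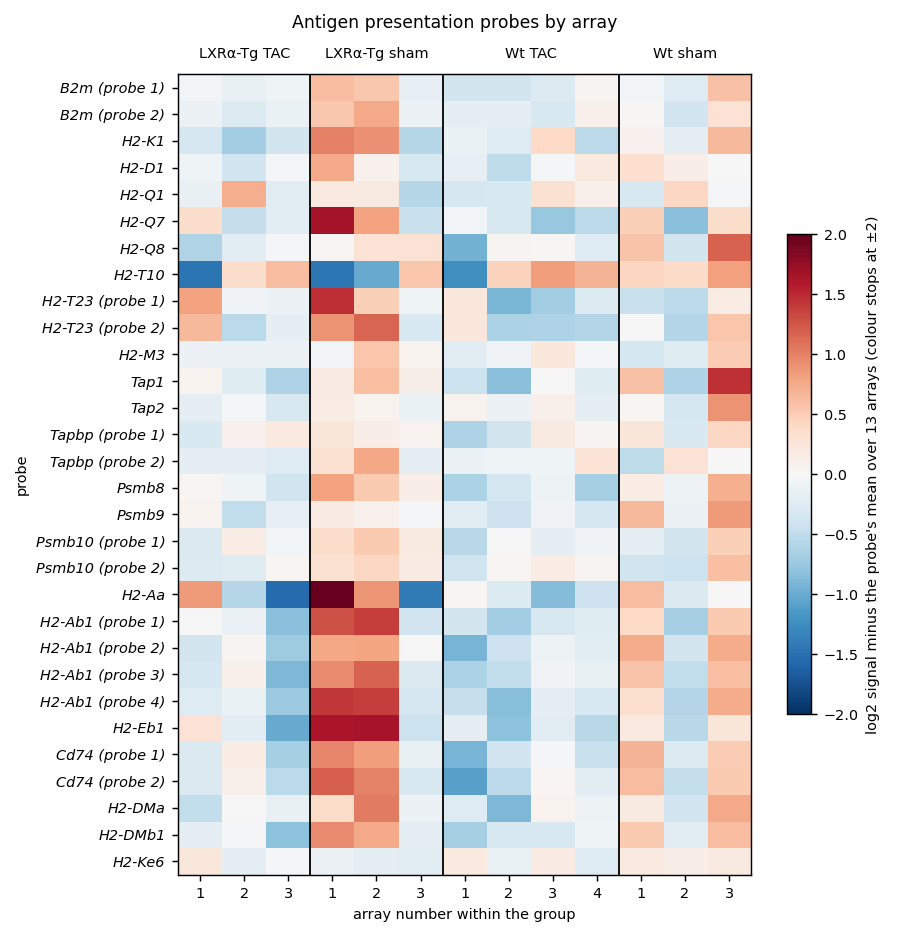
Normalized log2 signal of the 30 detected probes (rows) on the 13 arrays (columns, by labelled group), as the difference from each probe's mean over the arrays. Red is above and blue below the mean, and LXRα-Tg sham 1 and 2 and Wt sham 3 hold the highest value of 27 of the 30 probes.

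The members shared a pattern across single arrays. LXRα-Tg sham 1 had the highest normalized value of 11 of the 30 probes, LXRα-Tg sham 2 of 10 and Wt sham 3 of 6. The median of the 30 probes, as a difference from each probe's mean, was 0.68 and 0.68 on LXRα-Tg sham 1 and 2 but -0.16 on LXRα-Tg sham 3. Both LXRα-Tg sham 1 and 2 lay above LXRα-Tg sham 3 in 27 of the 30 probes. In LXRα-Tg TAC the 3 arrays had medians of -0.16, -0.13 and -0.21. Wt TAC arrays had -0.35, -0.36, -0.07 and -0.22, and Wt sham arrays 0.22, -0.35 and 0.54. Thus the 2 arrays at the top were the LXRα-Tg sham arrays with low Nr1h3, and the third array of their group had a median within the range of the TAC arrays.

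No member was called in any of the 5 comparisons, at an adjusted p under 0.05 by limma with Benjamini-Hochberg adjustment over the 11028 detected probes. For LXRα-Tg sham against Wt sham, 0 of 30 member probes were called, beside 136 of all probes (1.23%, with 1.03% higher and 0.199% lower). The other comparisons were Wt TAC against Wt sham, LXRα-Tg TAC against LXRα-Tg sham, LXRα-Tg TAC against Wt TAC, plus the TAC effect in LXRα-Tg minus that in Wt. In each of them 0 member probes and 0% of all probes were called in this fit. The methods' t-test, run unpaired with the same adjustment, called 0 members in each comparison of 2 groups. Its unadjusted p was under 0.05 for 1 member probe in LXRα-Tg sham against Wt sham, beside 5.46% lower of all probes, and for 2 in Wt TAC against Wt sham, beside 2.79%. The same held for 1 in LXRα-Tg TAC against LXRα-Tg sham, beside 3.22%, and for 0 in LXRα-Tg TAC against Wt TAC, beside 2.78%. All of these member probes were lower.

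After TAC the members lay mostly below sham in both genotypes, with no call. In LXRα-Tg TAC against LXRα-Tg sham, 27 of 30 probes had a log2 difference below 0, and the median was -0.57 (0.00 over all probes). By limma 10 of the 30 had an unadjusted p under 0.05, all of them lower, beside 6.99% of all probes (2.93% higher and 4.06% lower), and 17 with median scaling, beside 9.84% lower of all probes. One of the 10 was H2-K1, which was not detected on any LXRα-Tg TAC array. In Wt TAC against Wt sham, 27 of 30 were below 0, and the median was -0.40 (0.01 over all probes). Here 7 had an unadjusted p under 0.05, all of them lower, beside 6.86% of all probes (4.47% higher and 2.38% lower), and 2 with median scaling, beside 0.472% lower of all probes. The smallest adjusted p among members was 0.633 in LXRα-Tg and 0.58 in Wt. The LXRα-Tg median was -0.67 within slide 1, where it compared 1 array with 1, and -0.52 within slide 2. The Wt median was -0.38 within slide 1 and -0.70 within slide 2, where Wt sham 3 was the only sham array. Without the 5 arrays whose Nr1h3 went against the label, the median was 0.07 in LXRα-Tg, where LXRα-Tg sham 3 was the only sham array left, and -0.16 in Wt.

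These counts rested on single arrays. The share of all probes lower in the same fit is given in brackets. In LXRα-Tg, the count of 10 became 0 without LXRα-Tg sham 1 (4.26%) and 1 without LXRα-Tg sham 2 (2.48%). It was 2 without LXRα-Tg TAC 3 (3.7%) and 18 without LXRα-Tg sham 3 (4.97%). In Wt, the count of 7 became 1 without Wt sham 3 (2.72%) and 2 without Wt sham 1 (2.22%) or Wt TAC 1 (2.1%). It was 4 without Wt TAC 2 (2.29%) or Wt TAC 4 (2.73%) and 13 without Wt sham 2 (2.82%). Without the 2 arrays lacking Eif2s3y, LXRα-Tg TAC 3 and Wt sham 1, the count was 1 in LXRα-Tg (3.79%) and 2 in Wt (2.09%). The member medians were then -0.54 in LXRα-Tg and -0.34 in Wt. The TAC effect in LXRα-Tg minus that in Wt had a median of -0.20, which was -0.46 within slide 1 and 0.19 within slide 2. For it 0 members had an unadjusted p under 0.05, beside 9.92% of all probes (4.14% higher and 5.78% lower). The count became 6 lower without LXRα-Tg sham 3, beside 5.8% lower of all probes.

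In LXRα-Tg sham against Wt sham, 23 of 30 probes were above 0, and the median was 0.25 (-0.01 over all probes). It was 0.72 within slide 1, where LXRα-Tg sham 1 was the only LXRα-Tg sham array, and -0.24 within slide 2, where Wt sham 3 was the only Wt sham array. Without the 5 arrays it was -0.13, with LXRα-Tg sham 3 alone against Wt sham. With an unadjusted p under 0.05 there were 2 members, 1 higher and 1 lower, beside 15.1% of all probes (8.82% higher and 6.32% lower). The count of higher members became 12 without LXRα-Tg sham 3 and 6 without Wt sham 3, and 0 without LXRα-Tg sham 1, LXRα-Tg sham 2 or Wt sham 1. The share of all probes higher was not computed for those fits. LXRα-Tg TAC against Wt TAC had 19 of 30 above 0 and a median of 0.08, with 0.28 within slide 1 (1 LXRα-Tg TAC array), -0.13 within slide 2 and 0.13 without the 5 arrays. There 0 members had an unadjusted p under 0.05, beside 4.95% of all probes (1.92% higher and 3.03% lower). The comparisons share groups, so their values are given side by side.

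**Figure D2:**
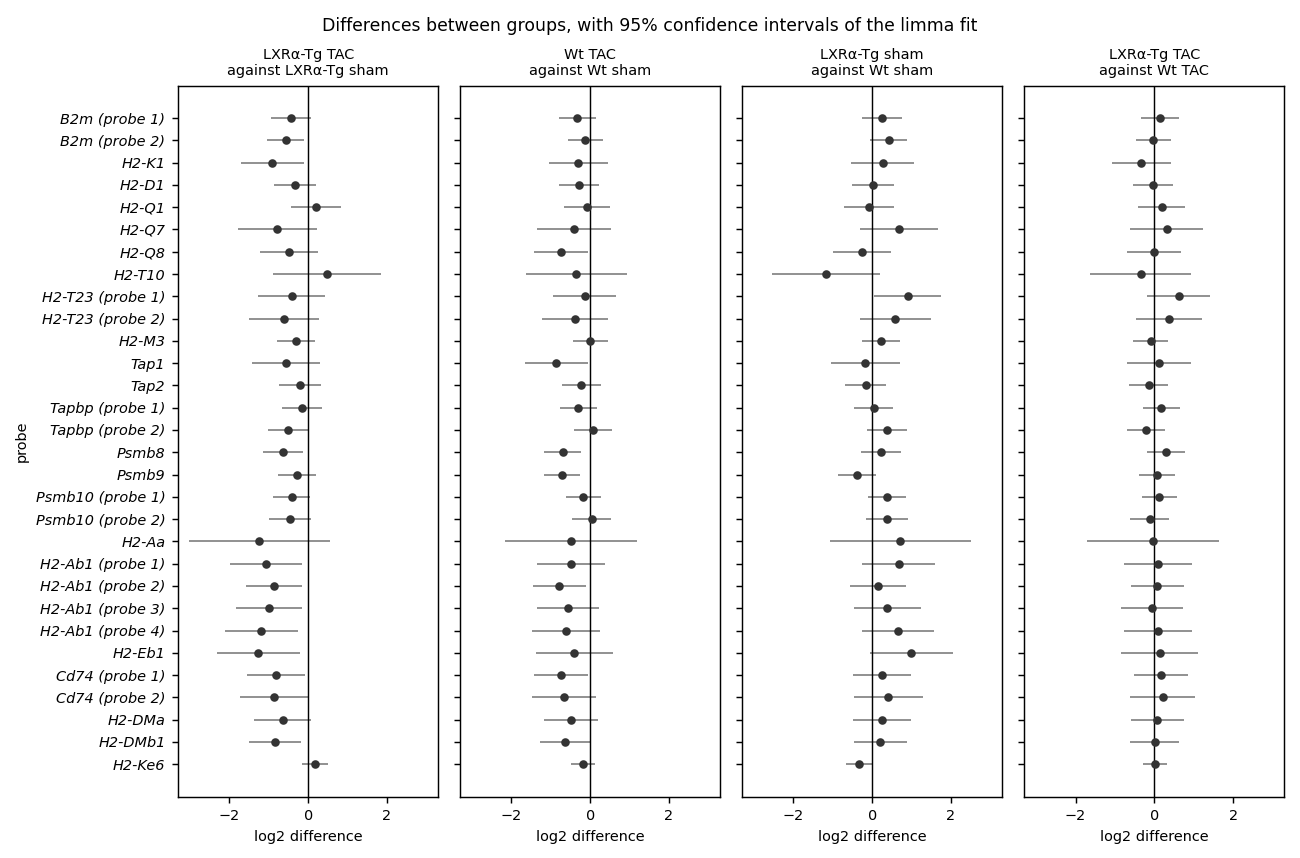
Log2 differences (points) with 95% confidence intervals (lines) of the 30 detected probes in 4 comparisons, from the limma fit to 13 arrays. In both TAC comparisons 27 of 30 points lie left of 0, while in LXRα-Tg TAC against Wt TAC they straddle it, and no probe was called.

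Class II chains had the largest median differences of the member classes after TAC in LXRα-Tg and between the sham groups, though not after TAC in Wt. Their 6 probes had a median log2 difference of -1.13 in LXRα-Tg TAC against LXRα-Tg sham, -0.53 in Wt TAC against Wt sham, 0.66 in LXRα-Tg sham against Wt sham and 0.08 in LXRα-Tg TAC against Wt TAC. Of these probes 4 read the same gene, H2-Ab1. All 6 lay below 0 after TAC in both genotypes. With an unadjusted p under 0.05 there were 5 of 6 in LXRα-Tg, beside 6.99% of all probes, and 1 of 6 in Wt, beside 6.86%. Over all 30 members the LXRα-Tg count was 0 without LXRα-Tg sham 1, beside 4.26% lower of all probes, and 1 without LXRα-Tg sham 2, beside 2.48%.

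H2-Aa, the α chain of the A molecule, had the widest spread of all members, with an SD of 1.17 on the log2 scale over the 13 arrays. It read 208, 42.3 and 17.9 in LXRα-Tg TAC and 873, 249.8 and 25 in LXRα-Tg sham, then 112, 77.8, 46.5 and 74.8 in Wt TAC and 123, 80.7 and 79.1 in Wt sham. LXRα-Tg sham held both the highest reading and the second lowest, LXRα-Tg TAC 3 was not detected, and all groups overlapped. The log2 difference after TAC was -1.24 (SE 0.83, adjusted p = 0.783 by limma) in LXRα-Tg and -0.49 (SE 0.78, adjusted p = 0.942) in Wt. Its upstream window held the paired boxes shown above.

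H2-Ab1, the β chain that pairs with H2-Aa, was read by 4 probes. The one with the widest spread gave 302, 209 and 160.4 in LXRα-Tg TAC and 907, 1133 and 244 in LXRα-Tg sham, then 269, 175, 307 and 302 in Wt TAC and 328, 234 and 475 in Wt sham. Only LXRα-Tg sham 1 and 2 stood clear of every other array, and LXRα-Tg sham 3 lay inside the range of LXRα-Tg TAC. Its log2 difference was -1.19 in LXRα-Tg after TAC (SE 0.43, adjusted p = 0.633 by limma), the smallest p of any member there. Another probe of H2-Ab1 gave 746, 647 and 446.5 in LXRα-Tg TAC and 1551, 1958 and 836 in LXRα-Tg sham, then 532, 633, 896.5 and 879.5 in Wt TAC and 1197, 741 and 1237 in Wt sham. Here LXRα-Tg TAC lay wholly below LXRα-Tg sham by signal. After normalization LXRα-Tg TAC 2 (9.85 on the log2 scale) passed LXRα-Tg sham 3 (9.80). The differences were -0.87 in LXRα-Tg and -0.79 in Wt (SE 0.31, adjusted p = 0.634). The next H2-Ab1 probe gave 829, 476 and 349 in LXRα-Tg TAC and 1831, 2456.5 and 539.6 in LXRα-Tg sham, then 665, 444, 645 and 734 in Wt TAC and 799, 505 and 905 in Wt sham. The last of them gave 391, 352 and 198 in LXRα-Tg TAC and 903, 1329.5 and 353 in LXRα-Tg sham, then 333, 315, 461 and 483 in Wt TAC and 555, 347 and 591 in Wt sham. LXRα-Tg sham 1 and 2 were the highest arrays in all 4 probes. Over the 4 probes the difference was -1.19 to -0.87 in LXRα-Tg and -0.79 to -0.49 in Wt.

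H2-Eb1, the β chain of the E molecule, read 674, 297 and 201 in LXRα-Tg TAC and 1594, 2018 and 348 in LXRα-Tg sham, then 511, 269.8, 449 and 384 in Wt TAC and 454, 361 and 496 in Wt sham. As for H2-Ab1, LXRα-Tg sham 1 and 2 stood above all other arrays and LXRα-Tg sham 3 did not. The next signals were those of LXRα-Tg TAC 1 and Wt TAC 1, though after normalization Wt sham 1 and 3 passed Wt TAC 1. The difference was 0.99 for LXRα-Tg sham against Wt sham (SE 0.49, adjusted p = 0.359 by limma), and -0.25 without the 5 arrays, with LXRα-Tg sham 3 alone in its group. After TAC it was -1.26 in LXRα-Tg (SE 0.49, adjusted p = 0.646) and -0.41 in Wt (SE 0.45, adjusted p = 0.905). H2-Ea, its partner, and H2-Eb2 were not detected.

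**Figure D3:**
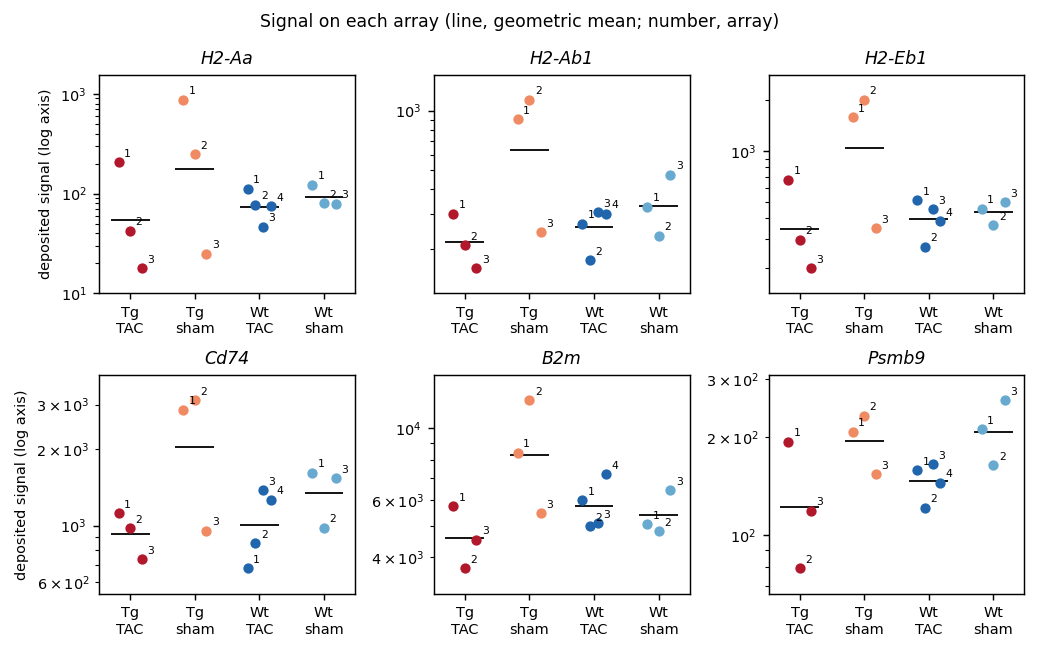
Deposited signal on each array (log axis) of H2-Aa, H2-Ab1 (the probe with the widest spread), H2-Eb1, Cd74, B2m and Psmb9 in the 4 labelled groups, with the array number beside each point and the geometric mean of a group as a line. In the first 5 genes LXRα-Tg sham 1 and 2 lie above the other LXRα-Tg arrays, and LXRα-Tg sham 3 lies among or near the LXRα-Tg TAC arrays.

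Proteins that load class II followed the same arrays. Cd74, the invariant chain, read 1121, 974 and 735 in LXRα-Tg TAC and 2867, 3127 and 953 in LXRα-Tg sham, then 677, 852, 1380.1 and 1262 in Wt TAC and 1615, 982 and 1537 in Wt sham. LXRα-Tg sham 3 lay within the LXRα-Tg TAC range, and Wt TAC overlapped Wt sham. The other Cd74 probe gave 1116, 994.5 and 659 in LXRα-Tg TAC and 2507, 2779.5 and 1062 in LXRα-Tg sham, then 766, 938, 1326 and 1078 in Wt TAC and 1686, 1121 and 1505 in Wt sham. It had a difference of -0.82 in LXRα-Tg (SE 0.34) and -0.75 in Wt (SE 0.32) after TAC, with adjusted p-values of 0.666 and 0.675 by limma. H2-DMb1, a chain of the DM protein that exchanges class II peptides, read 78.1, 54.3 and 29.4 in LXRα-Tg TAC and 181, 188 and 62.2 in LXRα-Tg sham, then 46.7, 61.9, 61.5 and 79.4 in Wt TAC and 92.8, 67.7 and 106 in Wt sham. Its difference after TAC was -0.84 in LXRα-Tg (SE 0.31, adjusted p = 0.639) and -0.64 in Wt (SE 0.29, adjusted p = 0.724). H2-DMa, the other DM chain, ranged between 45.6 and 282 over the arrays, with the highest reading on LXRα-Tg sham 2.

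Macrophage markers lay in the direction of class II in some comparisons and not in others. Of the 13 listed genes on the array, 9 were detected, and their summed signal was 3229 to 4304 in LXRα-Tg TAC, 4532 to 8654 in LXRα-Tg sham, 3688 to 5187 in Wt TAC and 2443 to 3756 in Wt sham. Itgam, Fcgr1, Ccr2 and Ctss were not detected. In LXRα-Tg sham against Wt sham their 11 probes were all above 0, with a median of 0.58. By limma 1 was called, beside 1.03% of all probes called higher. An unadjusted p under 0.05 was reached by 7 of the 11, beside 8.82% higher of all probes. In LXRα-Tg TAC against LXRα-Tg sham all 11 were below 0, with a median of -0.32. Here 2 had an unadjusted p under 0.05, beside 4.06% lower of all probes. In Wt TAC against Wt sham, where class II also lay lower, the macrophage median was 0.10. LXRα-Tg sham 3 had a macrophage sum of 4532, above all Wt sham arrays. Its H2-Aa, H2-Eb1, Cd74 and H2-DMb1 signals were below all Wt sham arrays, while its H2-Ab1 and H2-DMa signals were above Wt sham 2. After normalization only H2-Aa, of these class II genes, stayed below all Wt sham arrays. Fibroblast and endothelial markers also lay higher in LXRα-Tg sham than in Wt sham. All 9 fibroblast probes were above 0, with a median of 0.42 and 1 called by limma, beside 1.03% called higher of all probes. Of 11 endothelial probes 9 were above 0, with a median of 0.21 and 0 called. At an unadjusted p under 0.05, 6 fibroblast and 3 endothelial probes were higher, beside the same 8.82% of all probes. In LXRα-Tg TAC against LXRα-Tg sham the medians were -0.02 for both lists. Of the dendritic cell markers 1 of 7 genes was detected (Zbtb46), of the B cell markers 1 of 4 (Cd79b), and of the T and NK cell markers 0 of 8. The part of these cells in the class II values was not tested.

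B2m, the class I light chain, read 5756, 3699 and 4538 in LXRα-Tg TAC and 8417, 12207 and 5466 in LXRα-Tg sham, then 6006, 4981, 5088 and 7228 in Wt TAC and 5055, 4818 and 6452 in Wt sham. The 2 highest readings were again LXRα-Tg sham 1 and 2, and the groups otherwise overlapped. The difference was -0.57 in LXRα-Tg TAC against LXRα-Tg sham (SE 0.22, adjusted p = 0.646 by limma) and -0.12 in Wt (SE 0.21, adjusted p = 0.945). The other detected B2m probe gave 6001, 4037 and 4621.5 in LXRα-Tg TAC and 8595, 10422 and 5169 in LXRα-Tg sham, then 5299, 4401, 5199 and 6862 in Wt TAC and 4789.5, 5244 and 7814 in Wt sham. Its difference was -0.43 in LXRα-Tg and -0.33 in Wt after TAC. The third B2m probe was not detected on any array.

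Classical class I heavy chains were dim. H2-K1 read 13.9, 2.6 and 9 in LXRα-Tg TAC and 67.1, 68.1 and 5.6 in LXRα-Tg sham, then 16.9, 14.4, 31.8 and 8.5 in Wt TAC and 17, 16.4 and 33.4 in Wt sham. It was detected on 4 arrays only: 0 of LXRα-Tg TAC, 2 of LXRα-Tg sham, 1 of Wt TAC and 1 of Wt sham. H2-D1, detected on 10 arrays, read 26.7, 10.9 and 19.4 in LXRα-Tg TAC and 62.8, 36.4 and 15.1 in LXRα-Tg sham, then 21, 12.8, 24.4 and 34.2 in Wt TAC and 26.6, 31 and 21 in Wt sham. By signal LXRα-Tg sham 1 and 2 read highest for both genes. After normalization Wt sham 1 and 2 and Wt TAC 4 passed LXRα-Tg sham 2 for H2-D1. For H2-K1 LXRα-Tg TAC lay below Wt sham but overlapped the other groups, and for H2-D1 all groups overlapped. The H2-K1 probe passed the filter with the help of LXRα-Tg sham and has only a bound in LXRα-Tg TAC. The bound is the lowest normalized signal among detected probes of each LXRα-Tg TAC array, or the probe's own value where that was higher. Set against it, the LXRα-Tg sham mean was 1.35-fold higher. That mean includes LXRα-Tg sham 3, where the probe was not detected, so 1.35-fold is not a strict minimum. Measured log2 means were 4.69 in LXRα-Tg TAC and 5.60 in LXRα-Tg sham (adjusted p = 0.666 by limma). Against Wt TAC the bound gave no fold. The log2 difference of H2-D1 was -0.33 in LXRα-Tg (SE 0.25, adjusted p = 0.814) and -0.29 in Wt after TAC.

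The peptide transporter was highest on another array than class II. Tap1 read 34, 14.3 and 9.2 in LXRα-Tg TAC and 38.9, 65.6 and 28.7 in LXRα-Tg sham, then 16.2, 6.1, 26.8 and 22.6 in Wt TAC and 36.8, 12.2 and 84.8 in Wt sham. Tap2 read 303, 211 and 204.5 in LXRα-Tg TAC and 361, 429 and 268 in LXRα-Tg sham, then 378, 281, 352 and 314 in Wt TAC and 248, 259 and 498 in Wt sham. For both transporter subunits the highest array was Wt sham 3, which carried the liver and kidney signal and a high Nr1h3 signal. The difference of Tap1 was -0.86 in Wt TAC against Wt sham (SE 0.38, adjusted p = 0.702 by limma) and -0.57 in LXRα-Tg (SE 0.40, adjusted p = 0.8).

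Tapbp was read by 2 probes. The brighter gave 43.5, 37.3 and 47 in LXRα-Tg TAC and 72.9, 74.2 and 48.2 in LXRα-Tg sham, then 28, 35.4, 59.6 and 57.8 in Wt TAC and 47.3, 39.7 and 59 in Wt sham. By signal LXRα-Tg TAC lay just below LXRα-Tg sham, but the 2 groups overlapped after normalization. The normalized difference was only -0.16 (SE 0.23, adjusted p = 0.929 by limma). The dimmer probe was detected on 0 LXRα-Tg TAC, 2 LXRα-Tg sham, 1 Wt TAC and 1 Wt sham array, and read 14.9, 9.1 and 8.8 in LXRα-Tg TAC and 29.7, 52.9 and 11.2 in LXRα-Tg sham, then 14.2, 15.6, 14.8 and 26.3 in Wt TAC and 3.6, 25.8 and 14.3 in Wt sham. It too passed the filter with the help of LXRα-Tg sham. Set against the same kind of bound in LXRα-Tg TAC, its LXRα-Tg sham mean was 1.11-fold higher. That mean includes LXRα-Tg sham 3, where the probe was not detected, so this is not a strict minimum. Its measured log2 means were 4.82 in LXRα-Tg TAC and 5.32 in LXRα-Tg sham (adjusted p = 0.715 by limma). It had the smallest p of the members for the TAC effect in LXRα-Tg minus that in Wt (adjusted p = 0.584), a comparison that includes the group where it was not detected.

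Of the immunoproteasome subunits, Psmb9 and Psmb8 had the smallest p of any member in Wt TAC against Wt sham. Psmb9 read 193, 79.2 and 119 in LXRα-Tg TAC and 208, 232 and 154 in LXRα-Tg sham, then 158, 122, 165 and 145 in Wt TAC and 211, 164 and 259 in Wt sham. Psmb8 read 51.7, 27.1 and 22.4 in LXRα-Tg TAC and 98.1, 89.5 and 44.1 in LXRα-Tg sham, then 22.1, 29.6, 38.5 and 22.8 in Wt TAC and 36.8, 40.9 and 65.6 in Wt sham. By signal the Wt TAC and Wt sham arrays overlapped narrowly for both genes. The differences were -0.72 for Psmb9 (SE 0.21, adjusted p = 0.58 by limma) and -0.70 for Psmb8 (SE 0.22, adjusted p = 0.603) in Wt, and -0.27 and -0.63 in LXRα-Tg. Psmb10 gave 1202.5, 804 and 1161 in LXRα-Tg TAC and 1665, 2241 and 1412 in LXRα-Tg sham, then 1207, 1321, 1582 and 1602 in Wt TAC and 815, 1067.5 and 1707 in Wt sham. LXRα-Tg TAC lay below LXRα-Tg sham, with a difference of -0.46 (SE 0.25, adjusted p = 0.729), while in Wt it was 0.04 (SE 0.23, adjusted p = 0.985). The other Psmb10 probe gave 917, 817 and 849.5 in LXRα-Tg TAC and 1338, 1875 and 1114 in LXRα-Tg sham, then 813, 1005, 986 and 1135 in Wt TAC and 726, 870.0 and 1209 in Wt sham. Its difference was -0.42 in LXRα-Tg and -0.17 in Wt after TAC. Unlike Psmb8 and Psmb9, the Psmb10 gene lies outside the complex.

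Tap1 and Psmb9 are transcribed in opposite directions from neighbouring starts, and 275 of the 300 bases of their RefSeq windows are the same stretch. Relations across the 13 arrays were computed for 6 pairs of members, with Benjamini-Hochberg adjustment over the 6. Psmb8 and Tap1 varied together (Pearson r = 0.76, adjusted permutation p = 0.00633, Spearman rho = 0.81, adjusted permutation p = 0.00732), and r was 0.74 without the 2 arrays farthest from the Psmb8 median, 0.63 on slide 1, 0.89 on slide 2 and 0.67 on deviations from the group means. Tap1 was detected on 8 of the 13 arrays. The other 5 pairs had Pearson r between 0.55 and 0.78, and none had an adjusted p under 0.05 for Spearman's rho. Their r was 0.24 to 0.49 without 2 arrays, which were LXRα-Tg sham 1 and 2 in 4 of the 5 pairs.

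Those relations were weaker without the arrays left out. Cd74 with B2m had r = 0.78 (adjusted permutation p = 0.00633, rho = 0.62 with adjusted p = 0.0815), and r = 0.49 without LXRα-Tg sham 1 and 2. B2m with H2-K1 had r = 0.75 (adjusted permutation p = 0.00928, rho = 0.43 with adjusted p = 0.176), and 0.34 without them. Cd74 with H2-Aa had r = 0.65 (adjusted permutation p = 0.0208, rho = 0.51 with adjusted p = 0.116), and 0.24 without them. B2m with H2-D1 had r = 0.55 (adjusted permutation p = 0.0537, rho = 0.53 with adjusted p = 0.116), and 0.34 without them. H2-Aa with H2-Ab1 had r = 0.55 (adjusted permutation p = 0.0537, rho = 0.40 with adjusted p = 0.182), and 0.29 without LXRα-Tg sham 1 and LXRα-Tg TAC 3. Within slides all 5 were positive, between 0.71 and 0.93 on slide 1 and between 0.54 and 0.94 on slide 2. On deviations from the group means r was 0.67 for Cd74 with B2m, 0.66 for B2m with H2-K1, 0.55 for Cd74 with H2-Aa, 0.45 for B2m with H2-D1 and 0.41 for H2-Aa with H2-Ab1. H2-K1 was detected on 4 arrays only, LXRα-Tg sham 1 and 2 among them, so most of its values in these relations were background readings.

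Non-classical class I genes held the clearest exception to the shared pattern. H2-T10, annotated in RefSeq as a transcribed pseudogene of the T group, read 0, 41.1 and 58.5 in LXRα-Tg TAC and 0.4, 16.3 and 64.6 in LXRα-Tg sham, then 7.3, 66.3, 89.8 and 84.9 in Wt TAC and 48.2, 63.1 and 71.7 in Wt sham. On 4 arrays it was not detected (LXRα-Tg TAC 1, LXRα-Tg sham 1 and 2 and Wt TAC 1), and on the other 9 it was. The low arrays came from 3 of the 4 labelled groups and from both slides. H2-T23, which encodes Qa-1 and presents signal peptides of class I to NK cell receptors, was highest on the same 4 arrays. Its brighter probe read 643, 175 and 272 in LXRα-Tg TAC and 717, 1099.7 and 282 in LXRα-Tg sham, then 515, 231, 248.5 and 279 in Wt TAC and 296, 262 and 462 in Wt sham. The dimmer probe read 164, 50.8 and 55.9 in LXRα-Tg TAC and 261, 149 and 66.5 in LXRα-Tg sham, then 104, 33.4, 42 and 66.8 in Wt TAC and 39.7, 51.1 and 72.1 in Wt sham. In both probes' signals the lowest of the 4 arrays read above the highest of the other 9. After normalization this held for the dimmer probe, while for the brighter one Wt sham 3 (9.13 on the log2 scale) passed Wt TAC 1 (8.81). The class II gene H2-Eb1 was also highest by signal on these 4 arrays, narrowly (511 on Wt TAC 1, 496 on Wt sham 3), but not after normalization. For H2-Aa, Wt sham 1 (123) read above Wt TAC 1 (112).

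Because the arrays fall into 2 levels of H2-T10, no correlation is given for it. The difference of H2-T10 was -1.18 for LXRα-Tg sham against Wt sham (SE 0.63, adjusted p = 0.417 by limma). H2-T23 had the smallest p of the members there, 0.90 for the dimmer probe (SE 0.39, adjusted p = 0.301), and also in LXRα-Tg TAC against Wt TAC, 0.62 (SE 0.37, adjusted p = 0.989). The brighter H2-T23 probe had 0.59 and 0.37 in the same comparisons.

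The probes most like H2-T10 were then listed, by the absolute Pearson correlation over the 13 arrays, a step chosen after its values were seen. Of the 30 most alike, 29 had a RefSeq chromosome and 9 of these (31.0%) lay on chromosome 17, which carries the H2 complex, against 5.13% of all tested probes with a chromosome. Ranked by Spearman correlation it was 6 of 30. The most alike was Gm8909 (RefSeq synonym H2-gs17), with 3 RefSeq genes between it and H2-T10, which read 153, 236.5 and 369 in LXRα-Tg TAC and 240, 331 and 403 in LXRα-Tg sham, then 145, 427, 447 and 433 in Wt TAC and 423, 337 and 556 in Wt sham. Wdr46, with 194 RefSeq genes between, ran the opposite way in both of its probes, as did H2-T23, Abhd16a and Ddr1, while Vars2, Ddx39b and Pgp ran the same way. These directions are the signs of the correlations of normalized values. In the deposited signals of Gm8909, Abhd16a, Vars2, Ddx39b and Pgp, the 4 arrays without H2-T10 overlapped the others. The second most alike lay on another chromosome. Gdpd3, a lysophospholipase D family gene on chromosome 7, read 580, 14.5 and 17.1 in LXRα-Tg TAC and 622, 29.8 and 15.9 in LXRα-Tg sham, with 522 on Wt TAC 1, at most 23.2 on the other Wt TAC arrays and 15.7, 21.4 and 7 in Wt sham. It was high on 3 of the 4 arrays that lacked H2-T10, and not on LXRα-Tg sham 2.

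**Figure D4:**
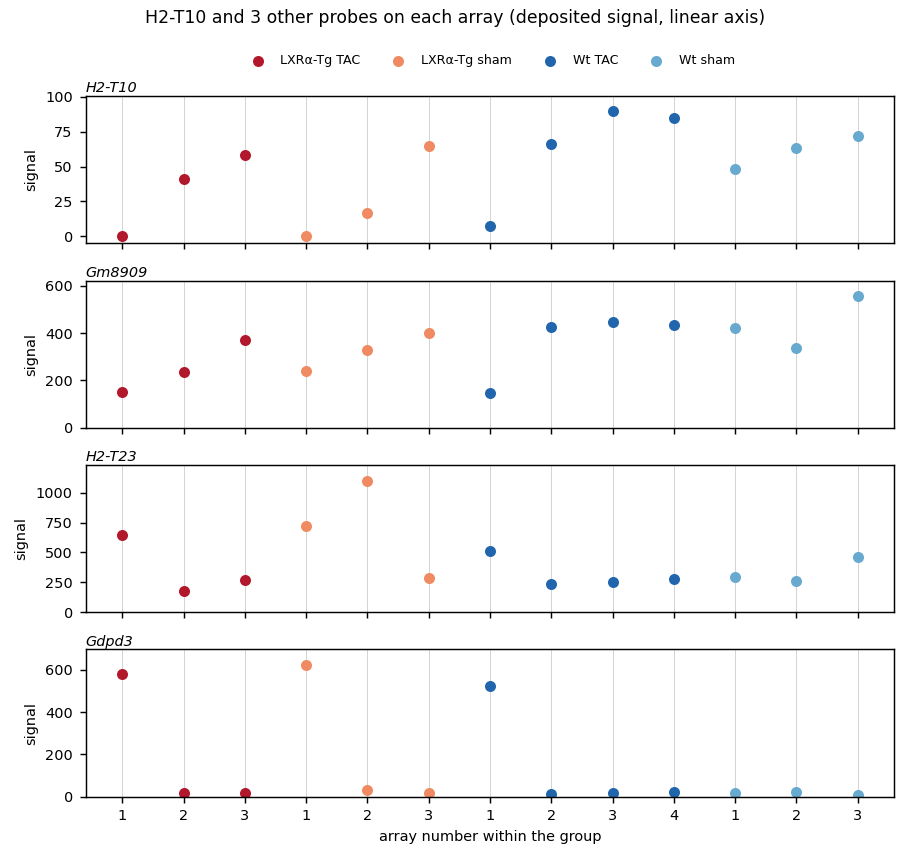
Deposited signal (linear axis) of H2-T10, Gm8909, H2-T23 (the brighter probe) and Gdpd3 on each of the 13 arrays, coloured by labelled group. H2-T10 was not detected on LXRα-Tg TAC 1, LXRα-Tg sham 1 and 2 and Wt TAC 1, the 4 arrays where H2-T23 was highest, and Gdpd3 was high on 3 of them.

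Other non-classical genes did not divide the arrays in this way, though H2-Q7 did in part. H2-Q7, which encodes the Qa-2 antigen, read 89, 25.3 and 37.1 in LXRα-Tg TAC and 233, 146 and 34.7 in LXRα-Tg sham, then 58.5, 43.5, 27 and 38.4 in Wt TAC and 65.9, 26.6 and 63.1 in Wt sham. Its 2 highest readings were on LXRα-Tg sham 1 and 2, and the next was on LXRα-Tg TAC 1, all arrays without H2-T10. Wt TAC 1, also without it, read below Wt sham 1 and 3. After normalization Wt sham 1 passed LXRα-Tg TAC 1. H2-Q8 ranged between 25 and 132, with Wt sham 3 highest, and differed by -0.75 in Wt TAC against Wt sham (SE 0.32, adjusted p = 0.681 by limma). H2-Q1, detected on 6 arrays, ranged between 3.1 and 30.2. H2-M3, which presents formylated peptides, ranged between 63.4 and 222, and its difference in Wt after TAC was 0.00 (SE 0.21). Q-group genes have closely related sequences, so a probe of one could read another, and this was not tested.

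H2-Ke6 stood apart from the antigen presentation genes. It read 2767, 1384 and 1779.9 in LXRα-Tg TAC and 1964.5, 2365 and 1768 in LXRα-Tg sham, then 2977, 1928, 2618 and 2074 in Wt TAC and 2035, 2559 and 2082 in Wt sham. The groups overlapped, and LXRα-Tg sham 1 and 2 did not read highest. Its difference was -0.34 for LXRα-Tg sham against Wt sham (SE 0.15, adjusted p = 0.305 by limma), the only member lower there at an unadjusted p under 0.05. For the TAC effect in LXRα-Tg minus that in Wt it was 0.36 (SE 0.21, adjusted p = 0.601), and the brighter B2m probe had -0.44 (SE 0.30, adjusted p = 0.669).

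Pathway genes outside the member list had median differences after TAC closer to 0 than the members. In the interferon-gamma axis and its transactivators, 13 of 18 genes on the array were detected (20 probes), and 0 probes were called in any comparison. With an unadjusted p below 0.05 there were 0 higher and 1 lower (Ifngr1, -0.76) in LXRα-Tg TAC against LXRα-Tg sham. Of all probes 2.93% were higher and 4.06% lower there. Wt TAC against Wt sham had 1 higher (Nfyb, 0.37) and 1 lower (Stat2, -0.52), beside 4.47% and 2.38%. LXRα-Tg sham against Wt sham also had 1 higher (Ifngr1, 0.80) and 1 lower (Nfyc, -0.43), beside 8.82% and 6.32%. The adjusted p-values of these probes were 0.140 to 0.644 by limma. In LXRα-Tg TAC against Wt TAC there were 3 lower, beside 3.03% of all probes: 2 of the 3 probes of Ifngr2, a chain of the interferon-gamma receptor (-0.64 and -0.67), and 1 of the 2 probes of Jak2, its kinase (-0.39), all with an adjusted p of 0.984 by limma. For the TAC effect in LXRα-Tg minus that in Wt there was 1 lower, beside 5.78% lower of all probes. Their median after TAC was -0.09 in LXRα-Tg and -0.21 in Wt. For peptide supply and class I loading, 7 of 10 genes were detected, with medians of -0.08 in LXRα-Tg and -0.08 in Wt and 0 of 8 probes at an unadjusted p under 0.05 in these 2 comparisons. Class II processing, with 7 of 11 genes detected, had medians of -0.15 in LXRα-Tg and 0.03 in Wt, and also 0 of 10 probes. The share of all probes at that threshold was 6.99% in LXRα-Tg and 6.86% in Wt. The cathepsin S gene Ctss, which trims Cd74, was not detected. These are counts beside the member values, and the difference between the lists was not tested.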

How the data were processed

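The authors deposited one linear, background-subtracted signal intensity per probe and array, exported from GenomeStudio 2011.1 (submitters' processing notes) and not normalized between arrays, with a detection p-value for each. The deposited processed intensity table, with a median of 6.5 on every array, served as an alternative, and no source used here gives its normalization. The limma 3.58.1 package (R 4.3.3) did the normexp correction from the detection p, with offset 16, and quantile normalization (neqc). The 11028 probes detected on at least 3 arrays were fitted on the log2 scale in a group-means model of all 13 arrays with 9 residual degrees of freedom. Adjusted p-values are limma's, with Benjamini-Hochberg adjustment over all of them, and a call needs one under 0.05. Symbols came from the platform table (23978 probes with 1, 1719 with none).

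Members and lists were chosen with earlier results of these data known. Values in every array are given for B2m, H2-K1, H2-D1, H2-Aa, H2-Ab1, H2-Eb1, Cd74, Ciita, Tap1, Tap2, Tapbp and the Psmb genes, for the 5 member probes of largest SD over the arrays and for the 3 of smallest p in each comparison. Gm8909, Gdpd3, Wdr46, Abhd16a, Ddr1, Vars2, Ddx39b and Pgp were named after their values were seen. Relations used two-sided tests of 100000 permutations (scipy 1.17.1, with numpy 2.4.6 and pandas 2.3.3 under Python 3.11.15), and figures matplotlib 3.10.9. The fit was tested on simulated data. Alternatives covered background correction, scaling, the starting table, the filter, slide, array weights, probe choice, the tests that the study's methods name and arrays left out. The number of arrays limits the precision.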

Additional observations from a re-analysis of the deposited data

Results flagged for a closer look

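In Wt TAC, the only group of 4 arrays, 2 of the 30 detected probes had an array set far from the other 3, where chance flags about 1 in 20 groups. The brighter H2-T23 probe had a normalized log2 value of 8.81 on Wt TAC 1, and the next array had 8.0. The dimmer Tapbp probe had 5.3 on Wt TAC 4, and the next array had 4.95. Groups of 3 were not examined in this way. No difference between the TAC effects of the 2 genotypes was called for any member.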

How the results depend on the processing

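The count of called members was 0 in all 137 alternative fits of the 5 comparisons, each array left out in turn included (0 to 0), and 401 of 405 alternative values of the named probes kept their direction and their side of the threshold. The 4 others changed sign with no call on either side: H2-Ke6 for the difference of the TAC effects was -0.028 with median scaling, and without the 5 arrays whose Nr1h3 went against the label H2-Eb1 was -0.25 for LXRα-Tg sham against Wt sham, and H2-Ab1 0.14 and H2-DMb1 0.078 for LXRα-Tg TAC against LXRα-Tg sham. The cause was not tested. Median scaling moved the median of all probes by 0.15 (LXRα-Tg sham against Wt sham), 0.18 (Wt TAC against Wt sham), -0.17 (LXRα-Tg TAC against LXRα-Tg sham), -0.19 (LXRα-Tg TAC against Wt TAC) and -0.36 (difference of the TAC effects), and the member medians were then 0.45, -0.22, -0.71, -0.15 and -0.56. With it, B2m with H2-D1 (r = 0.61, adjusted permutation p = 0.0321) and H2-Aa with H2-Ab1 (r = 0.60, adjusted permutation p = 0.0321) passed the threshold. With all probes of the table fitted, the member median was -0.16 for LXRα-Tg TAC against LXRα-Tg sham, over 57 probes. In LXRα-Tg sham against Wt sham the calls over all probes, 136, numbered 233 with median scaling, 549 with array weights, 59 with all probes, 51 with only those groups in the fit, 0 by the methods' tests, 0 within slide 1, 9 within slide 2 and 9 without the 5 arrays, and 0 to 158 with arrays left out in turn. In the other comparisons, with 0 calls over all probes, median scaling gave 56 for the difference of the TAC effects. Within slide 1, with arms of 1 array, there were 55 for LXRα-Tg TAC against LXRα-Tg sham, 80 for LXRα-Tg TAC against Wt TAC and 59 for the difference. Within slide 2 there were 8 for Wt TAC against Wt sham and 1 for the difference, there were 10 for LXRα-Tg TAC against Wt TAC without the 5 arrays, and 1 for the difference without LXRα-Tg TAC 2. Without the 5 arrays, where LXRα-Tg sham is 1 array assumed to vary like the others, the member median of the difference of the TAC effects was 0.31. With arrays left out in turn, the member median was 0.06 to 0.50 for LXRα-Tg sham against Wt sham, -0.67 to -0.23 for Wt TAC, -0.79 to -0.40 for LXRα-Tg TAC against LXRα-Tg sham, -0.01 to 0.17 for LXRα-Tg TAC against Wt TAC and -0.43 to 0.07 for the difference. No paired analysis was possible because the labels pair no arrays. H2-K1, the dimmer Tapbp probe and Tap1 were close to background on most arrays, which limits what their differences show.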
